A study of Drosophila melanogaster with 28 samples.

Results

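A set of 9 array elements had ratios that departed from wild type in pupae lacking all dsx product, in both chromosomal sexes, while their mean ratio in dsxD pseudomales lay close to 0. These 9 elements, of 15744 non-control elements on the array, were chosen by their measured values. The rule asked for a mean log2 ratio of the same sign and of 0.8 or more in size (a fold of 1.74) in both the XX dsx null and the XY dsx null comparison, and below 0.3 in size (a fold of 1.23) in the dsxD comparison, each on 3 or more arrays, and it left out 1021 elements that the study lists as expressed in the germline. Of 3696 elements that could be judged, 307 (8.31%) met the dsx null condition, and 9 of these 307 (2.93%, or 0.244% of the 3696) met the dsxD condition as well, which 59.6% of the 3696 met. The 4 members higher in both dsx nulls than in wild type were Drosomycin (Drs), Drsl1, CG3397 and an unnamed element, DAC038N08. The 5 members lower in both dsx nulls were Cse1, CG2150, CG7294 and the unnamed elements DAC008O21 and DAC013D21.

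In Drosophila, the sex determination hierarchy is a cascade of regulated splicing. Sex lethal acts in XX animals to allow production of TRA, and TRA directs splicing of dsx pre-mRNA to the form that encodes DSXF. In XY animals, and in XX animals without TRA, dsx is spliced to the form that encodes DSXM. Both proteins are transcription factors with a shared DNA binding domain. A dsx null animal makes neither protein, whereas an XX dsxD pseudomale makes DSXM alone.

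Transcript levels were compared in whole pupae at 48 hour APF (after puparium formation), with 4 arrays for each of 7 comparisons and 28 arrays in all. The XX and the XY dsx nulls were both of genotype dsx D+R3 / dsx M+R15. The XX dsxD pseudomales were dsxD, Sb1, e1 / dsx M+R15, and the XX tra pseudomales were tra1 / Df(3L)st-j7; both, like the XX nulls, carried 1 X chromosome marked with P[UBI-GFP], which in the pseudomales also carried y and w. Canton-S (CS) females were the wild type RNA for the 3 XX mutants and CS males for the XY nulls. Females were compared with males in CS, in the Berlin strain, and in progeny of tud1 bw1 sp1 mothers and y, w, UBI-GFP fathers, which lack a germline. No comparison set the mutant stocks against CS apart from the sex hierarchy alleles, so the alleles and the rest of each stock's genome cannot be told apart. The dsxD and null genotypes shared the M+R15 chromosome and differed in its homolog. Because whole pupae were used, fewer cells of a type and less RNA per cell cannot be told apart.

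All values below are log2 ratios with wild type (or female) in the numerator, so a value above 0 is higher in wild type, or in females, and a value below 0 is higher in the mutant, or in males. roX1, a male-specific noncoding RNA, was at -4.69 in the CS, -5.60 in the Berlin and -7.82 in the tud progeny comparison, and the tra element was at 0.90 in the tra comparison. The number of elements with a value ranged from 4783 to 12023 per array. roX1 was also at -4.41 on XX dsx null array 4 and at -0.23 on array 3, and had no value on the remaining XX null arrays, so the arrays of that genotype differed in a male-specific RNA. The male germline list had a median of -0.08 on that array and between -0.03 and 0.01 on the other XX null arrays. In the XY nulls the same list was at 0.84, that is lower in the nulls than in CS males, and was measured for 666 of its 671 elements. The XY nulls also differed from CS males in RNAs that were higher in females. The tra element was at -1.42 and the 2 Sxl elements had a median of -0.58, higher in the nulls. In the CS comparison of females with males these were at 0.37 and 0.74. The source of these differences was not tested. Without XX null array 4, 7 of the 9 members still met the rule. The part of the germline RNA in the results below was not tested.

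**Figure D1:**
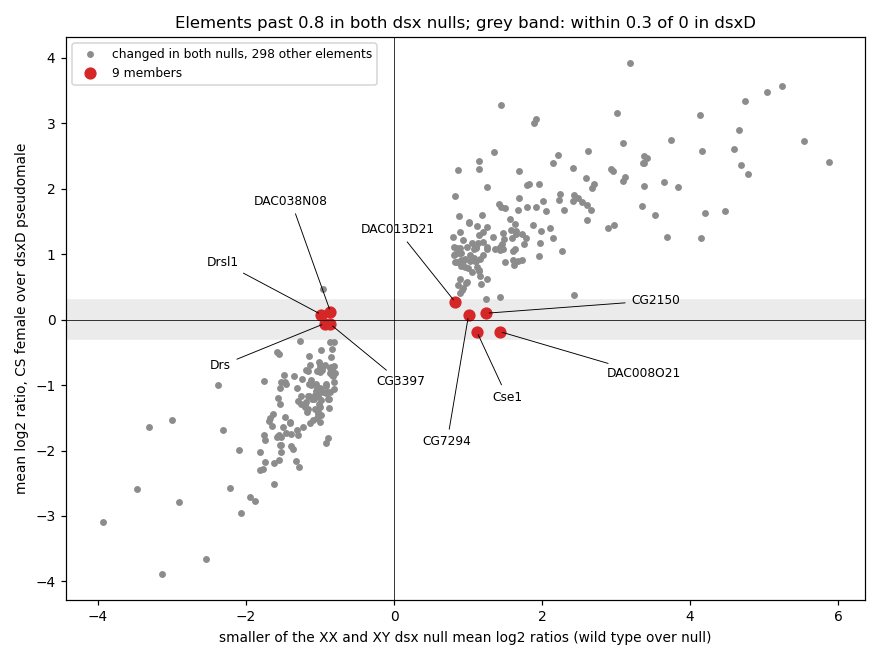
Each point is 1 of the 307 elements past 0.8 in both dsx nulls. The horizontal axis is the smaller of both null mean log2 ratios, the vertical axis the mean log2 ratio in the dsxD comparison, and the grey band spans the limit of 0.3. The 9 members (red) lie inside the band, between -0.19 (Cse1) and 0.27 (DAC013D21).

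Drs encodes Drosomycin, an antifungal peptide secreted by the fat body and a standard readout of the Toll pathway, and Drsl1 belongs to the same peptide family. On the 4 XX dsx null arrays Drs was at -0.51, -1.63, -0.18 and -1.65, and on the XY dsx null arrays at -0.83, -0.85, -1.48 and -0.60. On the dsxD arrays it was at -0.14, -0.19, 0.60 and -0.51. All 8 null values were thus below 0, whereas the dsxD values spanned 0 and overlapped those of the XX nulls. Drsl1 was at -0.59, -1.55, -0.22 and -1.57 in the XX nulls, at -1.20, -1.21, -1.57 and -1.17 in the XY nulls, and at 0.06, -0.18, 0.87 and -0.44 in dsxD. For Drsl1 the XY null values lay below every dsxD value, and the XX null values again overlapped dsxD. Mean levels in the nulls corresponded to 1.99-fold (XX) and 1.92-fold (XY) more Drs RNA than in wild type, and to 1.98-fold and 2.44-fold more Drsl1 RNA.

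The ratios of both elements moved together from array to array. Over the 12 dsx null and dsxD arrays the median absolute difference between them was 0.09 on the log2 scale and the largest 0.57 (XY null array 4), and over all 21 arrays on which both were measured these were 0.15 and 0.59 (CS array 4). Drs and Drsl1 lie on chromosome 3L with 2 annotated genes between them (assembly Release 6 plus ISO1 MT, used here for gene names and order only). Cross-hybridization between these paralogs was not tested, so they may not be separate measurements. The spread within the XX nulls was wide for both: arrays 2 and 4 were near -1.6, and arrays 1 and 3 between -0.59 and -0.18. Neither met the rule without XX null array 4, on which roX1 was high in the null, or without array 2, on which roX1 had no value, and Drs did not meet it without XY null array 3.

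Further members of the family were measured on the same arrays, and were chosen here after their values were seen. Drsl5 was at 0.26, -0.81, 0.43 and 0.10 in the XX nulls, at 0.73, -0.22, -0.17 and 0.27 in the XY nulls, and at -0.08, -0.15, 1.24 and -0.86 in dsxD. Drsl4, which is on the germline list, had means of -0.21 in the XX nulls, -0.02 in the XY nulls and -0.02 in dsxD. In contrast to Drs and Drsl1, neither element was on 1 side of 0 in the nulls. On the dsxD arrays all 4 family elements were highest on array 3 (0.60 to 1.24) and lowest on array 4 (-0.94 to -0.44), so their dsxD means near 0 averaged arrays that differed by more than 1 log2 unit.

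CG3397, which encodes a predicted oxidoreductase of the aldo/keto reductase family, was at -0.59, -1.29, -0.79 and -0.78 in the XX dsx nulls and at -0.82, -1.82, -1.19 and -1.05 in the XY dsx nulls. In dsxD it was at 0.01, 0.06, 0.15 and -0.49. Every null value lay below every dsxD value, with 0.10 between the nearest XX null and dsxD arrays. The means corresponded to 1.82-fold (XX) and 2.33-fold (XY) more RNA in the nulls. CG3397 did not meet the rule without XX null array 2, at -1.29, or with medians in place of means. CG18547, a gene of the same family that lies 1 annotated gene away on 3R, was at -0.89 ± 0.21 (SD, n = 4) in the XX nulls and -0.81 ± 0.24 (SD, n = 4) in the XY nulls, but at -0.71 ± 0.28 (SD, n = 3) in dsxD, outside the limit. The unnamed element DAC038N08 was at -0.77, -1.08 and -0.73 in the XX nulls, at -1.07, -0.85 and -0.69 in the XY nulls and at -0.16, 0.15 and 0.37 in dsxD, with no value on the remaining array of each. Its null and dsxD values did not overlap.

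Among the members lower in the nulls, CG2150 (also named GCR1) and CG7294 are annotated protein-coding genes on 3R and 2L. CG2150 was at 2.01, 0.75, 0.57 and 1.64 in the XX dsx nulls and at 2.18, 3.47, 2.12 and 1.71 in the XY dsx nulls. In dsxD it was at 0.99, -0.07, -0.48 and -0.05, so that dsxD array 1 overlapped the XX nulls while the other dsxD arrays lay below all null arrays. CG7294 was at 2.12, 0.56, 0.42 and 0.92 in the XX nulls, at 1.53, 1.12, 1.40 and 1.47 in the XY nulls, and at 0.28, 0.02, -0.59 and 0.55 in dsxD. Its XY null values lay above every dsxD value, and its lowest XX null value lay inside the dsxD range. The means corresponded to 2.37-fold (XX) and 5.17-fold (XY) less CG2150 RNA in the nulls, and to 2.01-fold and 2.61-fold less CG7294 RNA. TwdlT, a Tweedle cuticle protein gene named GCR(ich) in the study's lists, fell just outside the rule and had much the same values: 1.43 ± 0.84 (SD, n = 4) in the XX nulls, 2.15 ± 0.74 in the XY nulls and 0.35 ± 0.84 in dsxD.

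Cse1 encodes the exportin that returns importin alpha to the cytoplasm. Its member element was at 1.13, 1.13, 2.14 and 1.19 in the XX dsx nulls and at 0.34, 1.35 and 1.67 in the XY dsx nulls. In dsxD it was at 0.01, -0.23 and -0.34, below every null value. A second Cse1 element on the array did not share this pattern. It was at -0.27, -0.04, -0.23 and -0.23 in the XX nulls and at -0.07 and -0.34 in the XY nulls, and had a mean of -0.11 in dsxD. The 2 elements thus disagreed by 1.40 against -0.19 in the XX nulls and by 1.12 against -0.20 in the XY nulls, and the ratio of the member element cannot be taken as that of Cse1 RNA as a whole. The second element is on the female germline list and was therefore not open to the rule.

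The unnamed element DAC008O21 had the smallest SD among the members in both nulls, 0.11 and 0.17. It was at 1.36, 1.38, 1.36 and 1.59 in the XX nulls and at 1.77, 1.59, 1.36 and 1.65 in the XY nulls, a mean of 2.68-fold and 3.02-fold less RNA. In dsxD it was at 0.25, -0.08 and -0.72, more than 1 log2 unit below the nulls. DAC013D21 was at 0.76, 1.43, 0.50 and 0.62 in the XX nulls, at 1.32, 1.84, 0.95 and 1.42 in the XY nulls, and at 0.71, 0.29, 0.09 and -0.01 in dsxD. Here dsxD array 1 lay inside the XX null range, and the dsxD mean of 0.27 was the member mean nearest to the limit.

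**Figure D2:**
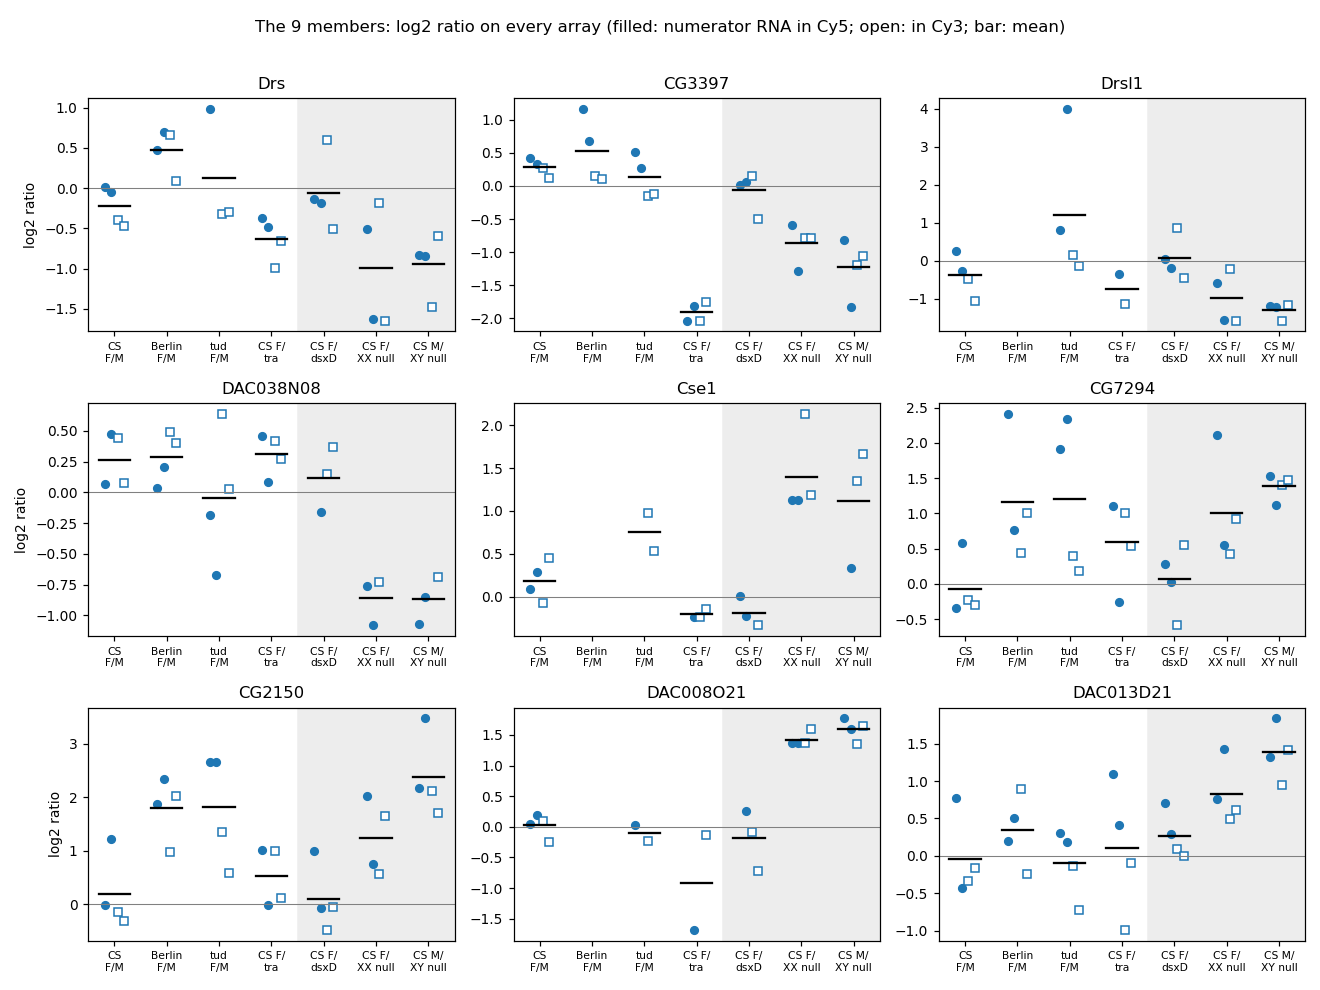
The log2 ratio of each member on every array, by comparison (F, female; M, male). Filled circles are arrays with the numerator RNA in Cy5, open squares arrays with it in Cy3, bars are means, and the shaded comparisons chose the members. DAC008O21 has null values between 1.36 and 1.77, well apart from dsxD, whereas Drs has XX null values from -1.65 to -0.18 that overlap dsxD.

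Elements close to the limits showed how the set was bounded. The smaller null mean of the 9 members ranged from 0.83 (DAC013D21) to 1.42 (DAC008O21) in size. A further 7 elements were past 0.8 in both nulls with a dsxD mean between 0.3 and 0.45 in size, the nearest being DAC035K20 at 0.31, and they included TwdlT at 0.35 and Tis11 at 0.41. Another 24 elements had a dsxD mean below 0.3 and a smaller null mean between 0.6 and 0.8 in size. The nearest of these was DAC030N19 at 0.79, followed by mtsh at 0.78.

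The tra comparison was not used to choose the members. It asked whether XX animals that lack TRA, and so splice dsx to the male form, shared the ratios of the nulls or of dsxD. The CS female RNA of this comparison is also the wild type side of the XX null and dsxD comparisons, so the values below are set side by side only. A limma fit over 7587 elements with Storey q-values called 7 of the 9 members at q under 0.15. Of these, 3 were higher in CS females, against 13.3% of all elements tested, and 4 were higher in tra pseudomales, against 11.5%. After Benjamini-Hochberg adjustment, which called 7.42% and 6.81% of elements in these directions, 2 members passed, CG3397 and Drs, both higher in tra pseudomales.

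CG3397 was at -2.03, -1.81, -2.03 and -1.76 on the 4 tra arrays, a 3.75-fold higher level in tra pseudomales than in CS females (-1.91 ± 0.13 SE, limma, q = 0.00041). The arrays lay within 0.28 of each other and all lay beyond the dsxD arrays, whose lowest value was -0.49. Its neighbour CG18547 was higher in tra pseudomales as well (-1.43 ± 0.15 SE, q = 0.0018). Drs was at -0.37, -0.49, -0.99 and -0.66, a 1.54-fold higher level in tra pseudomales (-0.63 ± 0.15 SE, q = 0.036). Drs thus lay on the side of the nulls on all 4 tra arrays, but -0.37 and -0.49 were also inside its dsxD range of -0.51 to 0.60. Drsl1 had values on 2 tra arrays, -0.35 and -1.13 (-0.74 ± 0.27 SE, q = 0.11), and this call was lost under 5 of 9 alternatives. Its value of -0.35 lay inside the dsxD range of -0.44 to 0.87. Drsl5 and Drsl4 differed in the opposite direction, at 0.94 ± 0.20 SE (q = 0.025) and 0.70 ± 0.24 SE (q = 0.084), that is lower in tra pseudomales.

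CG7294 and CG2150 were lower in tra pseudomales, the side on which the nulls lay. CG7294 was at 1.10, -0.25, 1.00 and 0.54 (0.60 ± 0.23 SE, q = 0.11), and CG2150 at 1.00, -0.01, 0.99 and 0.12 (0.53 ± 0.21 SE, q = 0.12). In both, 1 array (array 2) was below 0, and without array 1, 3 or 4 neither was called (q up to 0.25 and 0.28). Their tra means were less than those of the XX nulls by 0.41 and 0.72 on the log2 scale. Both overlapped dsxD. For CG7294, -0.25 and 0.54 lay inside the dsxD range of -0.59 to 0.55. For CG2150, -0.01, 0.12 and 0.99 lay inside the dsxD range of -0.48 to 0.99.

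None of the remaining members was called on the side of the nulls. The lack of a call does not show that a ratio like that of the nulls was absent. DAC038N08, higher in the nulls, was lower in tra pseudomales, at 0.46, 0.08, 0.42 and 0.27 (0.31 ± 0.14 SE, q = 0.14). DAC008O21, lower in the nulls, was at -1.69 and -0.14 on the 2 tra arrays with a value (-0.91 ± 0.39 SE, q = 0.15, just under the threshold), and these values differed by more than their mean. Both calls were lost under Benjamini-Hochberg adjustment. Cse1 was at -0.24, -0.23 and -0.14 (-0.21 ± 0.16 SE, q = 0.28), within the dsxD range of -0.34 to 0.01 and apart from the nulls. DAC013D21 was at 1.09, 0.42, -0.99 and -0.10 (0.10 ± 0.31 SE, q = 0.49). Its values split by dye, with a mean of 0.75 where CS female RNA was in Cy5 and -0.55 where it was in Cy3. In the tra comparison as a whole, arrays of the same dye orientation correlated at 0.70 over elements and those of opposite orientation at 0.37, and with a dye term in the fit 8 members and 56.6% of all elements were called, against 24.7% without it.

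**Figure D3:**
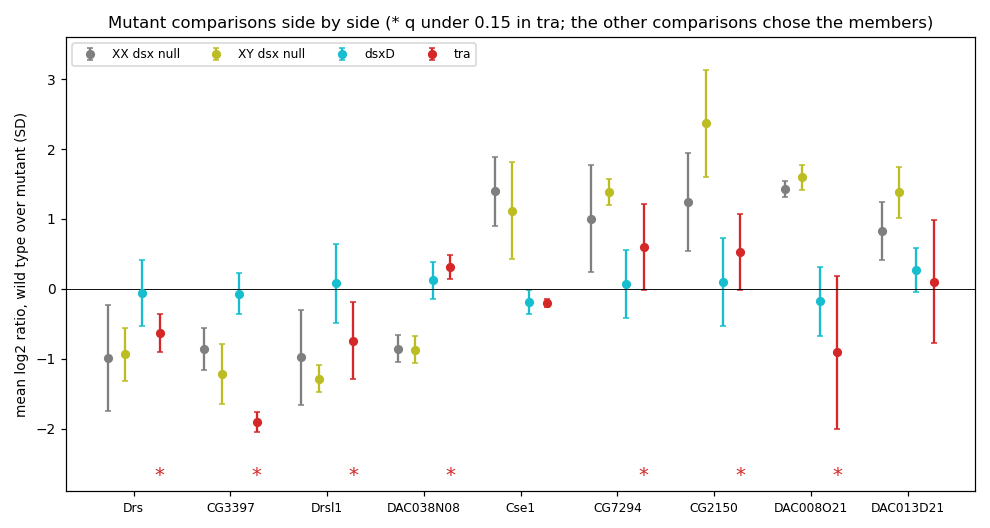
Mean log2 ratio (SD) of each member in the 4 mutant comparisons; stars mark q under 0.15 in tra, the only comparison shown that did not choose the members. CG3397 is at -1.91 in tra against -0.07 in dsxD, while Cse1 is at -0.21 in tra and -0.19 in dsxD.

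By size alone, 2 of the 9 members, Cse1 and DAC013D21, had a tra mean below 0.3, the limit used for dsxD. Another 5 were at 0.3 or more in size on the side of the nulls, and 2 (DAC038N08 and DAC008O21) on the opposite side. This split rested in part on single arrays: DAC013D21 was at 0.47 without array 3, and DAC038N08 at 0.26 without array 1 and 0.27 without array 3. Of the 298 elements that met the null condition and had 2 or more tra values, 27.9% had a tra mean below 0.3, as did 61.9% of all elements judged by the rule with 2 or more tra values. How many of the 298 were past 0.3 on each side was not counted. The 5 and 2 members on these sides therefore have no background beside them and are not a trait particular to the members.

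Whether the members differed between the sexes was asked in wild type and in tud progeny. Over the 8 CS and Berlin arrays, 5 of the 9 members were called higher in females and 1 higher in males, against 46.2% and 26.9% of 9901 elements tested. With so many elements called, the Storey q-values of all 9 members but CG3397, CG2150 and DAC038N08 were below their unadjusted p. After Benjamini-Hochberg adjustment, which called 23.9% and 21.1% of elements, 3 members were called. These were CG2150, CG3397 and DAC038N08, each higher in females.

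CG2150 was at -0.01, 1.22, -0.15 and -0.32 in CS and at 1.86, 2.34, 0.97 and 2.02 in Berlin (0.99 ± 0.31 SE over both, q = 0.013). The Berlin values were all well above 0, and 3 of 4 CS values were below it. CG7294 was at -0.34, 0.57, -0.23 and -0.31 in CS and at 2.42, 0.76, 0.44 and 1.01 in Berlin (0.54 ± 0.28 SE, q = 0.055). CG3397 was above 0 on every wild type array, at 0.42, 0.33, 0.28 and 0.11 in CS and at 1.16, 0.68, 0.16 and 0.11 in Berlin (0.41 ± 0.13 SE, q = 0.013). DAC038N08 was likewise above 0 on all 8 arrays, between 0.04 and 0.49 (0.28 ± 0.09 SE, q = 0.016). The medians of the Berlin arrays over all elements were themselves above 0, from 0.06 to 0.18. On Berlin array 1 DAC038N08, at 0.04, was below the array median of 0.18. With arrays centred on their medians, limma gave 0.21 for DAC038N08 (q = 0.049) and 0.34 for CG3397 (q = 0.018). Over the 8 wild type arrays CG3397 and DAC038N08 were thus higher in females than in males. They were also higher in both dsx nulls than in wild type of the same chromosomal sex.

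Drs was at 0.01, -0.05, -0.40 and -0.47 in CS and at 0.47, 0.70, 0.66 and 0.09 in Berlin, so that the strains did not overlap and the mean over both did not pass (0.13 ± 0.15 SE, q = 0.18). Cse1, Drsl1 and DAC008O21 had no value on any Berlin array. Cse1 was at 0.19 ± 0.15 SE (q = 0.13, unadjusted p = 0.26) and Drsl1 at -0.38 ± 0.23 SE (q = 0.082, unadjusted p = 0.14) on the CS arrays alone. DAC008O21 (0.02, q = 0.30) and DAC013D21 (0.15, q = 0.17) were not called.

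The difference between strains was tested over 8153 elements, of which 1.07% were called with CS above Berlin and 2.32% with CS below Berlin. Of 6 members tested, 2 were called, both with the female over male ratio lower in CS: CG2150 by -1.61 ± 0.39 SE (q = 0.098) and Drs by -0.71 ± 0.21 SE (q = 0.15, just under the threshold). With arrays centred on their medians, or after Benjamini-Hochberg adjustment (0.675% and 1.18% of elements called), only CG2150 was called.

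In tud progeny, which lack a germline, 3 of the 9 members were called, all higher in females, against 7.68% of 7851 elements called in that direction and 7.50% in the other. CG2150 was at 2.66, 2.65, 1.36 and 0.58 (1.81 ± 0.36 SE, q = 0.045), and CG7294 at 1.91, 2.34, 0.39 and 0.18 (1.21 ± 0.38 SE, q = 0.11). All values were above 0, and in both elements the arrays with female RNA in Cy5 were above those with it in Cy3. Cse1 had values on 2 arrays, 0.97 and 0.53 (0.75 ± 0.19 SE, q = 0.099). Both were arrays with female RNA in Cy3, arrays of opposite orientation correlated at 0.42 over elements in this comparison, and the second Cse1 element had a mean of 0.08 on 4 arrays. After Benjamini-Hochberg adjustment, which called 4.34% and 3.85% of elements, CG2150 alone passed. CG2150, CG7294 and Cse1 are also on the study's somatic sex-biased list, which was chosen on these arrays and is not independent evidence of their direction. CG3397 was at 0.52, 0.28, -0.16 and -0.12 and was not called (0.13 ± 0.15 SE, q = 0.43). DAC038N08 was at -0.19, -0.67, 0.64 and 0.03, on both sides of 0, and was not called (-0.05 ± 0.21 SE, q = 0.58). Drsl1 was at 0.81, 3.99, 0.15 and -0.14 (1.20 ± 0.65 SE, q = 0.24), with its mean resting on array 2, on which Drs had no value.

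**Figure D4:**
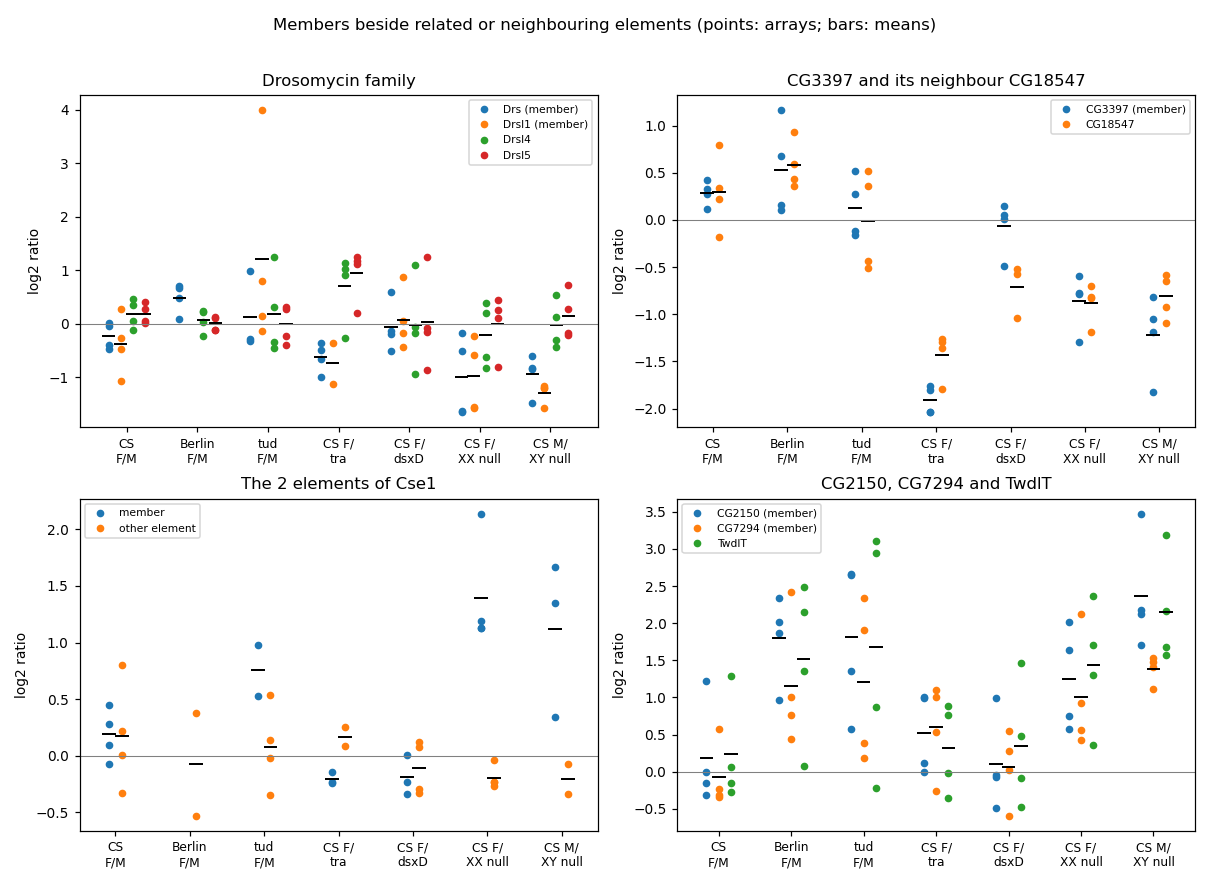
Log2 ratios on single arrays (points) and their means (bars) for members and the related or neighbouring elements named in the text. The second Cse1 element lies between -0.34 and -0.04 in the nulls, where the member element lies between 0.34 and 2.14, and CG18547 is at -0.71 in dsxD, where CG3397 is at -0.07.

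Of the gene lists examined, only the immune list held members. In the tra comparison 15 of its 17 elements were tested, and 5 were higher in CS females and 4 higher in tra pseudomales, beside the 13.3% and 11.5% of all elements called in these directions, with a median of 0.06 against 0.00 for all elements tested. Those higher in CS females included LysX (4.07 ± 0.34 SE, q = 0.00071) and LysS, which encode lysozymes, and Turandot A, a stress-induced secreted peptide, was higher in tra pseudomales (-2.84 ± 0.18 SE, q = 0.00029). In dsxD, Turandot A was at -2.51 and LysX at 2.12, both far outside the limit that Drs and Drsl1 met. Of 11 elements for genes of the sex hierarchy or marker and allele genes of the stocks, 3 were open to the rule, among them elements for Sxl and y. None of the 3 was a member. Around the 6 named members, 17 further named elements lay within 10 annotated genes. None of the 17 met the rule, for which those on the germline lists were not open, and CG10005, beside CG18547, was at 4.47 in the XX nulls, 6.23 in the XY nulls and 1.67 in dsxD.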

How the data were processed

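Each spotted oligonucleotide array was hybridized with 2 RNAs, 1 per dye, each from about 30 pupae with 30 µg labeled. The authors scanned with a GenePix scanner, discarded flagged elements, kept those with over 75% of pixels 1 SD above background in at least 1 channel, and applied LIMMA's global loess within arrays. The deposited log2 ratios, with the dye swap already turned, were used as given. Background correction and intensities are not given in the sources used here, so the number of arrays limits the precision. Direction was settled from roX1, from tra and from the signs of the study's DSX list. Names were available for 2357 elements from the study's lists, 2343 of them in a RefSeq gene table.

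Means, SDs and rule counts were computed in Python 3.11.15. limma 3.58.1 in R 4.3.3 tested each mean against 0 (two-sided) on all non-control elements with 2 or more values (4 or more of 8 for wild type), with Storey q-values (smoother, lambda 0.05 to 0.95) under 0.15. The fits were tested on simulated data. Each array comes from a separate sample by its label, and p-values measure the spread between these arrays only. For 2 tud arrays the sex label of channel 2 conflicts with the source name, which was used. Members and gene lists were chosen with earlier results of these data known. Named members were taken by the smaller null mean and by their calls in each test, and unnamed ones by their ID. Alternatives covered adjustment, dye, missing values, centring, scaling, the t statistic, replicate block and single arrays.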

Additional observations from a re-analysis of the deposited data

Results flagged for a closer look

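A total of 4 values stood apart from the other arrays of their comparison by the gap to the nearest array relative to the whole range, among 48 sets of 4 arrays examined, and chance alone marks about 1 set in 20. Cse1 was at 2.14 on XX dsx null array 3, with the other arrays between 1.13 and 1.19. DAC008O21 was at 1.59 on XX dsx null array 4, with the others between 1.36 and 1.38. CG7294 was at 0.57 on CS array 2, with the others between -0.34 and -0.23. Drsl1 was at -1.57 on XY dsx null array 3, with the others between -1.21 and -1.17.

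The female over male ratio differed between CS and Berlin for Drs by -0.71 and for CG2150 by -1.61 (CS minus Berlin, limma, q = 0.15 and 0.098).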

How the results depend on the processing

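With a null threshold of 0.6 the rule chose 33 elements, with 1 it chose 4, and with a dsxD limit of 0.4 it chose 15. Leaving out 1 dsx null or dsxD array gave 5 to 12 members. The lowest was without XX dsx null array 2, which kept 4 of the 9 (Cse1, CG2150, CG7294 and DAC008O21), and centring, scaling, complete values and a limit of 0.2 gave 6 to 9. With medians in place of means 9 elements were chosen, of which 5 were shared with the 9 members. When an array was left out, the minimum of 3 arrays still applied. A member with 3 values in a comparison therefore left the set, whatever its ratios, when an array holding 1 of them was dropped. This held for Cse1 (XY nulls and dsxD), DAC008O21 (dsxD) and DAC038N08 (both nulls and dsxD).

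In the tra comparison, 7 members were called, against 2 with Benjamini-Hochberg adjustment, 3 with an ordinary t statistic and 2 to 5 without 1 array. The lower counts came without array 1, 3 or 4. Over all elements, the main fit called 24.7%, Benjamini-Hochberg adjustment 14.2%, an ordinary t statistic 11.4% and fits without 1 array 11.1% to 21%. CG3397 and Drs were called under all 12 alternatives (q up to 0.043 and 0.13). In wild type, 6 members were called, against 3 with Benjamini-Hochberg adjustment, 5 with centred arrays and 4 to 6 without 1 array. Without 1 CS array only 6 members were tested, since Cse1, Drsl1 and DAC008O21 then had fewer than 4 values. Without CS array 3 or 4 all 6 tested were called, beside 71.1% and 73.2% of all elements. These 6 are not the set of 6 called in the main fit. Without 1 tra or 1 tud progeny array, 7 to 9 members were tested. In tud progeny, 3 were called, against 1 with Benjamini-Hochberg adjustment, 5 with a dye term, which called 42.7% of all elements against 15.2% without it, and 0 with an ordinary t statistic, which called 0 of 7851 elements (1 member at an unadjusted p under 0.05), and 1 to 2 without 1 array; without array 1 or 3 the count was 1. For the strain difference, 2 members were called, against 1 with Benjamini-Hochberg adjustment and 1 with centred arrays.

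A fit over all arrays with replicate number as a block called 6 members in tra, 7 in wild type and 3 in tud progeny, beside 39.7%, 77.9% and 18.3% of all elements. Under it Drsl1 was not called in tra (q = 0.15) and Cse1 not in tud progeny (q = 0.16), while Drsl1 in tud progeny (q = 0.056) and DAC013D21 in wild type (q = 0.13) were. Same-numbered arrays of different comparisons all correlated above 0.1 in 5 of 21 pairs of comparisons. An array correlated best with its own number in 74 of 168 cases, where 42 would be 1 in 4. Same-numbered arrays also had the same dye orientation in every comparison, and dye was not removed before correlating. The share of 1 in 4 would therefore hold only without a dye effect, and the replicate block took in dye orientation as well. The labels give no shared source for a number and not every pair passed 0.1, so the numbers were not taken to pair samples. No alternative reversed a called direction. Depth in the sense of signal over background is unknown here, and members measured on 2 tra arrays (Drsl1, DAC008O21) rest on the fewest values.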
